A study of Rattus norvegicus with 12 samples.

Results

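Freshly isolated rat hepatocytes from donors dead for 16 h were compared with those from donors dead for 4 h, on 6 of the 12 Affymetrix arrays of the study, 3 per group. The arrays were chosen by the hours after death in their titles, and the genes by having a probe set, other than an Affymetrix control, that carries 1 gene symbol. Of 31099 probe sets, 57 were controls, 9780 had no symbol, 436 had several and 20826 had 1, which represented 14217 genes. For each gene the probe set with the highest mean signal over the 12 arrays was used. Every animal was a rat of the strain given as Fischer 334. Beside the groups at 4 h and 16 h there were 3 heart-beating donors and 3 donors dead for 30 h, whose arrays helped to estimate the spread. The labels give no genetic change and no treatment other than the interval after death. Each array holds the total RNA of liver cells from a different animal, isolated by collagenase perfusion in 2 steps and never cultured. The labels used here give no clock hour of death or of isolation. The comparison asks which transcripts differed in hepatocytes recovered later after death.

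The liver keeps daily time with a loop of transcription factors. CLOCK or NPAS2 pairs with BMAL1 and switches on genes that carry an E-box, among them the Period and Cryptochrome genes, the REV-ERB genes Nr1d1 and Nr1d2, and the PAR bZIP factors Dbp, Tef and Hlf. PER and CRY proteins then hold back the activators, REV-ERB proteins compete with ROR proteins at ROR response elements and repress Bmal1, and DBP, TEF and HLF act through D-boxes against NFIL3. In liver the loop is known for setting the daily course of bile acid synthesis, lipid and glucose metabolism and drug breakdown.

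The letters of these elements were looked for, on both strands, in RefSeq promoter windows of the GRCr8 rat assembly, each from 250 bases before to 50 bases after a transcript start. The E-box CACGTG stood in 6.42% of all 33469 windows, the D-box TTANGTAA in 2.24% and the ROR response element TNGGTCA in 11.1%. Of 21 measured clock genes, 18 had a window, and 6 of those 18 held at least 1 of the motifs. The 250 bases before the start are printed for the 3 of these 6 that changed between 4 h and 16 h, because they are members of the loop that moved in opposite directions: Bmal1, an activator, was lower at 16 h, while Nr1d1 and Tef were higher. Capitals mark the motif, TAGGTCA in Bmal1 and CACGTG in the other two, and each stretch holds 1 match that overlaps no other.
Bmal1, chr1:176766078-176766327, plus strand, motif starting 16 bases before the start: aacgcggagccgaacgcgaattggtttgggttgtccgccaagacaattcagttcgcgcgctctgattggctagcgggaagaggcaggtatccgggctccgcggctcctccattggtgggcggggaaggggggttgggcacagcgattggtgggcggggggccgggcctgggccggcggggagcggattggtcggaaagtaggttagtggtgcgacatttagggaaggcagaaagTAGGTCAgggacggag
Nr1d1, chr10:84229455-84229704, minus strand, motif starting 191 bases before the start: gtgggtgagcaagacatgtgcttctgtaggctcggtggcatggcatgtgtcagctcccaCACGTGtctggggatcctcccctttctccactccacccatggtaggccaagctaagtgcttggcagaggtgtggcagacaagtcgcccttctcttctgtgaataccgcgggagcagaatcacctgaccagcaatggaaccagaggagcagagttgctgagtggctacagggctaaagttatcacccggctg
Tef, chr7:115206577-115206826, plus strand, motif starting 198 bases before the start: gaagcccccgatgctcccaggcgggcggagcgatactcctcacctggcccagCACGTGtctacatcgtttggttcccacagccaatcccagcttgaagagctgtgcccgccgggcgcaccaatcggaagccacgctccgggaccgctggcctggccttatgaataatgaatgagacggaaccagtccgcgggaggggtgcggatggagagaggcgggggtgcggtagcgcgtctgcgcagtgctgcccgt
Nr1d1 had another window, at an upstream start, in which none of the 3 motifs was found. Per2, Bhlhe40 and Bhlhe41, the rest of the 6 genes with a motif, were not called. Dbp, Nr1d2, Npas2, Per1, Per3 and Clock were called and had windows without any of the motifs. The share of all genes that hold at least 1 of the motifs was not counted, so 6 of 18 has no background here. Over all genes with a window, the E-box stood in 11.2% of those called higher, 8.25% of those called lower and 9.21% of the rest. The ROR response element stood in 11.1% of those called higher, 15.2% of those called lower and 10.5% of the rest. For the D-box these shares were 1.35%, 2.22% and 1.47%. A match describes letters and shows no binding.

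All values are the deposited log2 signals, so a difference of 1 is 2-fold. Calls rest on limma with a Benjamini-Hochberg adjusted p under 0.05. Among 14217 genes there were 1511 calls (10.6%), 1131 (7.96%) higher and 380 (2.67%) lower at 16 h than at 4 h. Most changes were modest: 938 of the 1511 (62.1%) differed by less than 0.5, the median was 0.45 among genes called higher and -0.40 among those called lower, and 70 were at least 2-fold, 51 of them higher (0.359% of all genes) and 19 lower (0.134%). The 3 arrays of each time did not overlap for 1502 of the called genes, and over all genes 19.4% had all arrays at 16 h above those at 4 h and 16.4% had them below. Brighter genes were called more often: with genes split into 4 equal classes by mean signal, the share called went from 2.42% in the dimmest class to 19.4% in the brightest, where 82.3% of calls were higher. In that brightest class 568 of 3554 genes were called higher and 122 lower, at a median difference of 0.08. Lists of bright genes below should be read beside these counts as well as beside the shares of all genes. Higher calls made up 74.9% of all calls on the deposited scale. That share was 59.4% when the arrays were rescaled by cyclic loess and 56% with quantile normalization repeated. Counted by probe set instead of by gene, 2007 of 20826 (9.64%) were called, 6.61% higher and 3.03% lower, and the 2 brightest probe sets of a gene differed unequally in 17.8% of the 4525 genes that had several. The count of calls was 875 without animal 1 and 956 without animal 2 at 4 h, and 806 without animal 1 and 693 without animal 2 at 16 h.

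**Figure D1:**
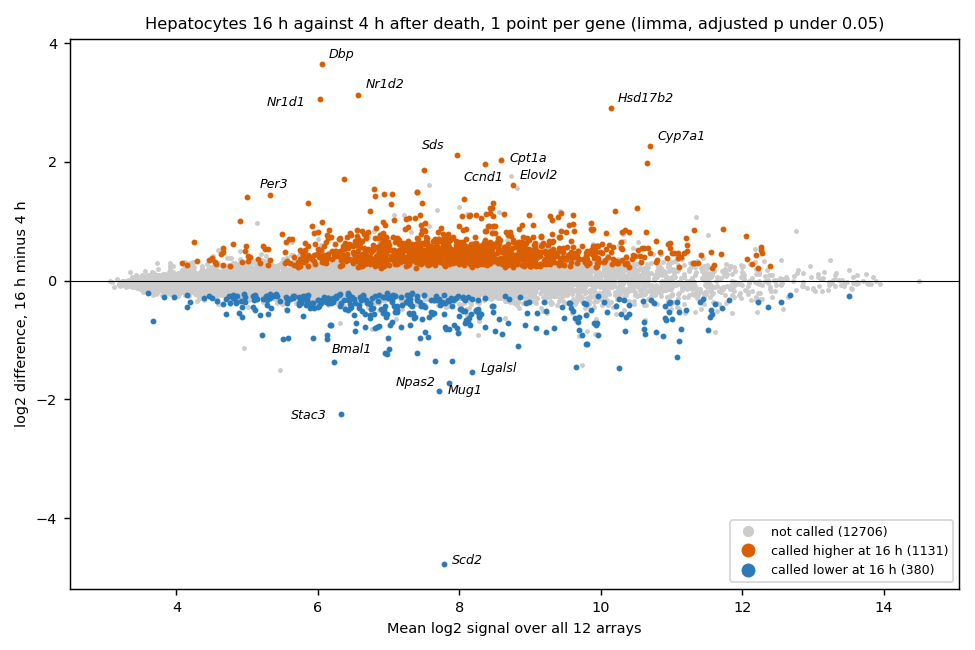
Log2 difference between 16 h and 4 h for each of 14217 genes against its mean log2 signal over all 12 arrays, coloured by call (limma, adjusted p under 0.05). Scd2 lies lowest at -4.76, and Dbp, Nr1d2, Nr1d1 and Hsd17b2 lie highest, at 3.64, 3.13, 3.06 and 2.91.

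RNA integrity differed in the same arrays. The Affymetrix control probe sets for the 3' end of Gapdh lay above those for its 5' end by 0.46, 0.27 and 0.42 at 4 h and by 0.85, 1.25 and 1.06 at 16 h. The mean was 0.38 ± 0.10 (SD, n = 3) at 4 h and 1.05 ± 0.20 (SD, n = 3) at 16 h, and the exact two-sided permutation p was 0.1, the smallest that 3 against 3 can give. For Actb the same gap was 1.71 ± 0.15 (SD, n = 3) and 2.21 ± 0.33 (SD, n = 3), again with an exact permutation p of 0.1. The other probe sets of genes called higher were also above 0 in 461 of 868 cases (53.1%), and 99 (11.4%) were themselves called higher. For genes called lower, 114 of 145 (78.6%) other probe sets were below 0. For genes not called, 1972 of 5596 other probe sets (35.2%) were above 0. With the Gapdh gap as a covariate, from here on called the integrity covariate, 782 genes were called, and 362 of the 1511 (24%) kept their call, while the median standard error of these genes went from 0.10 to 0.17. The gap itself did not overlap between the groups. Gap and time therefore cannot be told apart for any gene, whether it kept or lost its call in that fit. Differences and calls with this covariate are given below where it ended a call or moved a list.

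The clock genes held the largest rises. Both REV-ERB repressors rose, the PAR bZIP factors Dbp and Tef rose, Per1 and Per3 rose, and the activators Bmal1 and Npas2 and the repressor Cry1 fell. Dbp, a PAR bZIP activator of D-box genes, read 5.28, 5.19 and 5.28 at 4 h and 9.44, 8.41 and 8.81 at 16 h. Every array at 16 h thus stood more than 3 log2 units above every array at 4 h. The difference was 3.64 with a standard error of 0.19 (12.5-fold, 95% interval 3.23 to 4.05, limma adjusted p = 3.08e-07). The heart-beating donors had a mean Dbp of 5.16 and the 30 h group one of 4.94, both near the level at 4 h.

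Nr1d1, which encodes REV-ERB alpha, read 5.24, 4.97 and 5.63 at 4 h and 8.55, 8.22 and 8.24 at 16 h, a difference of 3.06 ± 0.13 (SE, limma adjusted p = 8.39e-08). Nr1d2, which encodes REV-ERB beta, read 5.56, 5.41 and 6.37 at 4 h and 8.98, 8.79 and 8.94 at 16 h, a difference of 3.13 ± 0.32 (SE, limma adjusted p = 0.000192). The 2 groups were far apart for both genes, and animal 3 at 4 h was the highest of its group in each. One other probe set of Nr1d2 gave 2.42 and was called, and a dim one gave 0.03. By 30 h the means were 5.06 for Nr1d1 and 5.70 for Nr1d2.

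Tef, the PAR bZIP relative of Dbp, read 7.69, 7.92 and 7.94 at 4 h and 9.21, 8.96 and 8.69 at 16 h. Its difference was 1.10 ± 0.12 (SE, limma adjusted p = 0.000215), and its other probe sets gave 0.79, which was called, and 0.17. The groups did not overlap. Hlf, another PAR bZIP factor, differed by 0.03 and was not called, and Nfil3, the repressor that competes at D-boxes, differed by -0.63 with an adjusted p of 0.0783 in limma.

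The list of the Period and Cryptochrome loop holds these repressor genes and also Csnk1d, Csnk1e, Bhlhe40 and Bhlhe41. Of its 9 measured members 3 rose, Per1, Per3 and Csnk1d, and 1 fell, Cry1. These were 33.3% and 11.1%, against 7.96% and 2.67% of all genes. Per3 read 4.88, 5.03 and 4.92 at 4 h and 6.90, 6.14 and 6.12 at 16 h, a difference of 1.44 ± 0.17 (SE, limma adjusted p = 0.000438). A second, dimmer probe set of Per3 gave 0.09. Per1 read 7.58, 7.31 and 7.31 at 4 h and 8.25, 8.02 and 7.90 at 16 h, a difference of 0.66 ± 0.11 (SE, limma adjusted p = 0.00285). Cry1 went the other way, with 7.09, 7.26 and 6.95 at 4 h and 6.38, 5.60 and 5.89 at 16 h, a difference of -1.14 ± 0.23 (SE, limma adjusted p = 0.00784). None of these 3 genes had overlapping groups. Csnk1d, a kinase that phosphorylates PER proteins, rose by 0.55, while its 4 other probe sets lay between -0.20 and 0.20 and were not called. Per2, Cry2, Csnk1e, Bhlhe40 and Bhlhe41, the remaining members, were not called. The direction of Per2 depended on the probe set, at -0.11 for the one used and 0.67 for the other, neither called. Once the Gapdh gap was a covariate, Per3 kept its call. Per1 had a difference of 0.68 there (limma adjusted p = 0.0648), Cry1 one of -0.25 (limma adjusted p = 0.631) and Csnk1d one of 0.46 (limma adjusted p = 0.178).

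All 3 activators that were called fell, of 6 measured (50%, against 2.67% of all genes). Npas2 read 8.30, 8.23 and 8.54 at 4 h and 6.70, 6.64 and 6.53 at 16 h, a difference of -1.73 ± 0.13 (SE, limma adjusted p = 2.17e-05). Bmal1 read 7.33, 7.38 and 7.45 at 4 h and 6.24, 6.32 and 5.94 at 16 h, a difference of -1.22 ± 0.13 (SE, limma adjusted p = 0.000192). Both genes were lower on every array at 16 h than on any at 4 h. Clock differed by -0.32 with an adjusted p of 0.042 in limma, but its 3 other probe sets gave -0.08, -0.11 and -0.06, and its call was lost on leaving out animal 1 or 2 at 4 h or any 1 animal at 16 h. With the integrity covariate Clock had a difference of -0.23 (limma adjusted p = 0.401), and 2 activators, Npas2 and Bmal1, kept their call. Rora, Rorb and Bmal2, the other 3 measured members of the list of activators, were not called.

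**Figure D2:**
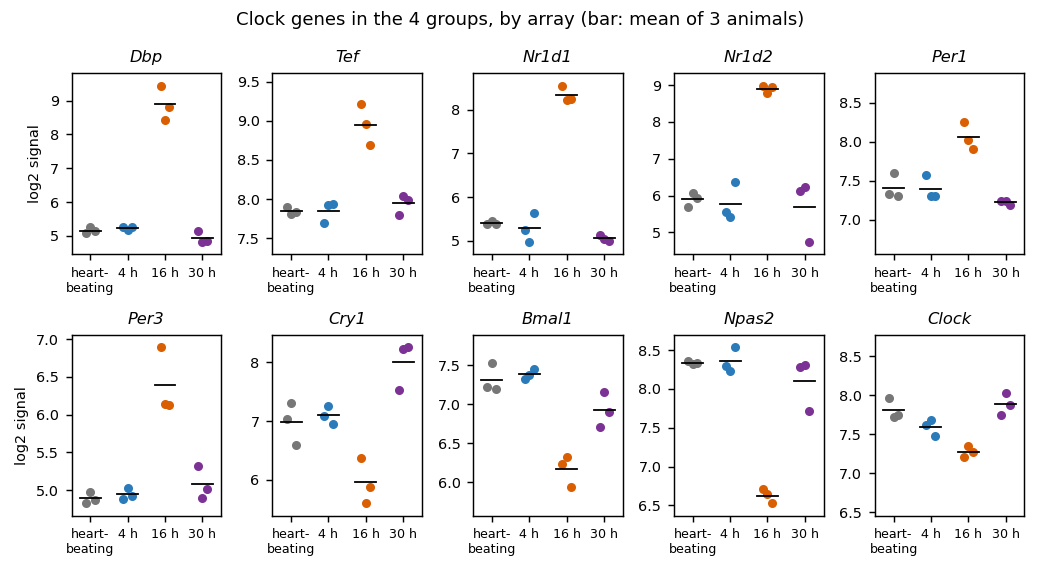
Log2 signal of 10 clock genes on each of the 12 arrays, by group, with bars at the mean of 3 animals. Dbp, Tef, Nr1d1, Nr1d2, Per1 and Per3 are highest at 16 h, and Cry1, Bmal1, Npas2 and Clock are lowest there.

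The 16 h group stood apart in both directions from the groups on either side of it, which the plot of clock genes by array shows. Npas2 averaged 8.34 in the heart-beating donors and, in order of time, 8.35, 6.62 and 8.10 in the other groups. Bmal1 averaged 7.31, 7.39, 6.17 and 6.92 in the same order, and Cry1 6.98, 7.10, 5.96 and 8.003. In the same fit, 30 h minus 16 h was -3.95 for Dbp, -3.28 for Nr1d1, 1.48 for Npas2 and 0.76 for Bmal1, each with an adjusted p under 0.05. These differences use the same 16 h arrays as the comparison with 4 h, so they are not independent of it.

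Of 22 measured clock output genes of liver, 5 rose (22.7%) and 3 fell (13.6%), against 7.96% and 2.67% of all genes. Por, the reductase that feeds electrons to cytochrome P450 enzymes, rose by 1.30 ± 0.28 (SE, limma adjusted p = 0.0104), and its other probe set gave 0.22 and was not called. Slc2a2, the glucose transporter GLUT2, rose by 0.86 and Alas1, the first enzyme of heme synthesis, rose by 0.59. Tubb2a, a beta tubulin, fell by 1.28 and Cdkn1a, the cell cycle inhibitor p21, fell by 0.97. Calls were lost by Por without animal 1 at 16 h, by Cdkn1a without animal 1 at 4 h or animal 1 or 2 at 16 h, and by Alas1 without animal 1 or 3 at 4 h or animal 1 or 2 at 16 h. The integrity covariate left 3 rises, Por among them, and the fall of Tubb2a.

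Bile acid genes rose as well: 7 of 24 measured members of the list (29.2%) were called higher, none lower, and 22 of the 24 lay above 0. Over all genes 7.96% were called higher. The median difference of the list was 0.24, against -0.01 over all genes and 0.08 in the brightest class of genes. Cyp7a1, the rate-limiting enzyme of bile acid synthesis from cholesterol, read 9.97, 9.49 and 9.29 at 4 h and 11.84, 12.02 and 11.70 at 16 h. Its groups did not overlap and differed by 2.27 ± 0.34 (4.82-fold, SE on the log2 scale, limma adjusted p = 0.00182). Cyp7a1 averaged 10.33 in the heart-beating donors and 11.01 at 30 h, so that 4 h had the lowest mean and 16 h the highest.

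Abcc2, the canalicular exporter of conjugated bilirubin and other anions, read 9.97, 10.25 and 9.97 at 4 h and 11.28, 11.14 and 11.45 at 16 h, a difference of 1.23 ± 0.12 (SE, limma adjusted p = 0.000144). Abcb4, which flips phospholipid into bile, rose by 0.60, and Fgfr4, the receptor through which intestinal FGF signals to bile acid synthesis, rose by 0.44. The other 3 called members, named after their values were seen, are Nr0b2, the repressor SHP, at 1.12, Abcb11, the bile salt export pump, at 0.48 and Slco1b2, an uptake transporter, at 0.30. With the integrity covariate 3 of the 24 were called higher, Abcc2 and Fgfr4 among them, and Cyp7a1 had a difference of 2.22 and an adjusted p of 0.0604. Abcb4 lost its call without animal 2 at 16 h.

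Cholesterol synthesis and uptake gave 6 rises among 21 measured members (28.6%, against 7.96% of all genes) and no fall. Stard4, a cholesterol carrier, rose by 0.63 ± 0.11 (SE) and Sc5d, a late enzyme of cholesterol synthesis, by 0.62 ± 0.13 (SE). Scap, the escort protein of the SREBP factors, rose by 0.59, and Lss, lanosterol synthase, rose by 0.72. The list's median was 0.39. None of the 21 was called with the integrity covariate, although the list's median was then 0.48. Lss lost its call without animal 1 or 3 at 4 h or animal 2 or 3 at 16 h, and with probe sets averaged Lss, Sc5d, Stard4 and Scap were not called.

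The largest fall of all belonged to fatty acid desaturation. Scd2, a stearoyl-CoA desaturase that makes monounsaturated fatty acids, read 10.18, 10.87 and 10.999 at 4 h and 5.71, 5.92 and 6.14 at 16 h. Its difference was -4.76 ± 0.39 (SE, 27.1-fold lower, limma adjusted p = 3.2e-05), and its 3 other probe sets gave -0.51, -2.48 and -0.54, all called lower. The 4 h arrays were the high ones, with a mean of 10.68 ± 0.44 (SD, n = 3) against 5.92 ± 0.22 (SD, n = 3) at 16 h. Scd2 averaged 7.60 ± 1.02 (SD, n = 3) in the heart-beating donors and 6.90 ± 0.44 (SD, n = 3) at 30 h. Probe sets of the Scd genes may read related sequences, so the share of each gene in this signal is uncertain.

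Other enzymes of fatty acid synthesis moved the opposite way. Elovl2, which elongates long polyunsaturated fatty acids, read 7.95, 8.03 and 8.10 at 4 h and 9.60, 9.58 and 9.72 at 16 h, a difference of 1.61 ± 0.15 (SE, limma adjusted p = 9.19e-05). Fads1, the delta-5 desaturase, read 11.28, 11.23 and 11.29 at 4 h and 11.95, 12.20 and 12.28 at 16 h, a difference of 0.88 ± 0.10 (SE, limma adjusted p = 0.000314). Fads2, the delta-6 desaturase, named after its value was seen, gave 0.81. For Elovl2 and Fads1 the groups were well separated. In the whole list of fatty acid and triglyceride synthesis, 6 of 37 members rose (16.2%) and 4 fell (10.8%), at a median of 0.03. Over all genes the shares were 7.96% and 2.67%. Chka, the first enzyme of phosphatidylcholine synthesis from choline, read 7.76, 7.97 and 7.83 at 4 h and 6.001, 6.65 and 6.86 at 16 h, a fall of 1.35 with a standard error of 0.21. Agpat2, an enzyme on the way to triglyceride and phospholipid, fell by 0.75. With the integrity covariate 2 members were called higher, Elovl2 and Fads1, and 2 lower, Scd2 and Chka.

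Among 23 genes of mitochondrial beta-oxidation 1 rose, the gate enzyme of the pathway, and 1 fell. Each is 4.35% of the list, beside 7.96% of all genes called higher and 2.67% called lower. Cpt1a, which loads fatty acids for entry into mitochondria, read 8.05, 8.28 and 8.26 at 4 h and 10.61, 10.36 and 9.70 at 16 h, a difference of 2.03 ± 0.21 (SE, 4.07-fold, limma adjusted p = 0.000204). A dimmer probe set of Cpt1a gave 0.18 and was not called. Of the other members, Acadsb, an acyl-CoA dehydrogenase, fell by 0.36 and 21 were not called, and the list's median was -0.0018. The probe set of Acadsb was dim, with means of 4.39 at 4 h and 4.04 at 16 h. The dimmest class of genes reached up to 5.42. With the integrity covariate 3 members were called higher and none lower, at a median of 0.32, and Acadsb was not called (limma adjusted p = 0.155). Cpt1a averaged 7.53 at 30 h.

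Gluconeogenesis and its regulators gave 5 rises among 19 members (26.3%, against 7.96% of all genes) and no fall. Pc, pyruvate carboxylase, rose by 0.65 ± 0.13 (SE) and Creb3l3, a liver factor activated in fasting, rose by 0.67 ± 0.07 (SE). Klf15, a factor that supports amino acid use for glucose, rose by 1.06, and its other probe sets gave 0.44 and 0.08 and were not called. Sds, serine dehydratase, read 7.70, 7.29 and 7.70 at 4 h and 10.67, 9.19 and 9.17 at 16 h. Its groups did not overlap, but the 2.12 difference had an adjusted p of 0.0354 in limma and lost its call on leaving out any 1 animal at 4 h, or animal 1 or 2 at 16 h. With the integrity covariate 2 members were called, Pc and Creb3l3. Of 15 measured genes of glycogen metabolism none was called, and 2 were called higher with the integrity covariate.

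**Figure D3:**
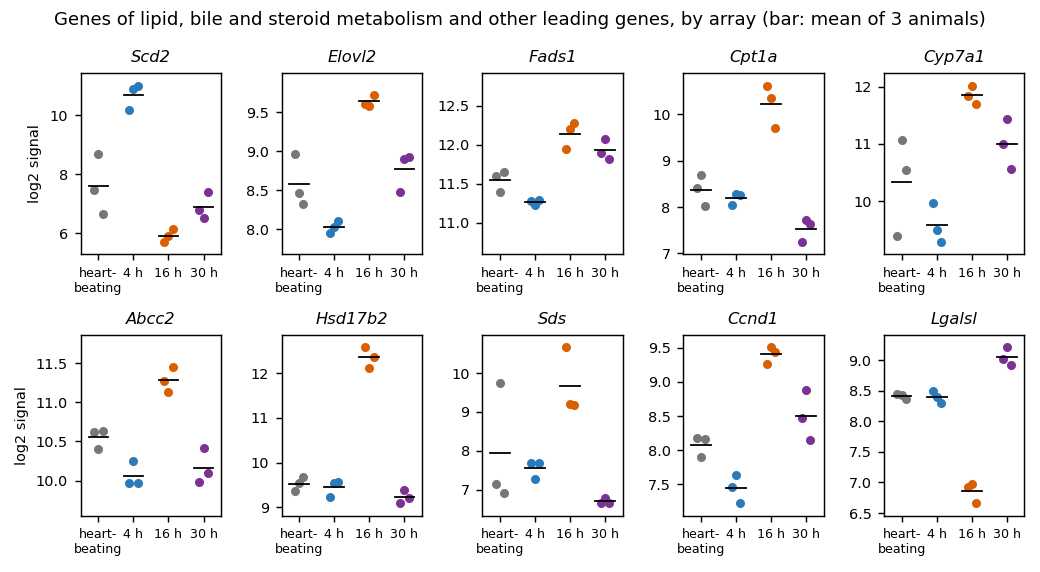
Log2 signal of 10 genes of lipid, bile, steroid and amino acid metabolism and of growth on each of the 12 arrays, by group, with bars at the mean of 3 animals. Scd2 drops from a mean of 10.68 at 4 h to 5.92 at 16 h, and Lgalsl is also lower at 16 h, while the other 8 genes are higher there.

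Hsd17b2, which inactivates oestradiol and testosterone, had the fourth largest rise. It read 9.23, 9.55 and 9.57 at 4 h and 12.59, 12.12 and 12.37 at 16 h, a difference of 2.91 ± 0.13 (SE, 7.51-fold, limma adjusted p = 8.39e-08). Hsd17b2 averaged 9.53 in the heart-beating donors and 9.23 at 30 h, so its arrays at 16 h stood above all 3 other groups. The rest of its list, steroid and retinoid handling, showed 1 further rise among 17 members, Lrat. With Hsd17b2 counted, 11.8% of the list rose, against 7.96% of all genes. Yet 14 of the 17 members lay below 0, at a list median of -0.10, and none was called lower.

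Ccnd1, which encodes cyclin D1, read 7.47, 7.63 and 7.23 at 4 h and 9.26, 9.51 and 9.44 at 16 h, a difference of 1.96 ± 0.16 (SE, limma adjusted p = 3.17e-05). Its other probe sets gave 2.65 and 1.33, both called. All its arrays at 16 h were above those at 4 h. Of 38 measured cell cycle genes 3 rose and 1 fell, shares close to those of all genes. Gadd45b, a stress-induced growth arrest gene, rose by 1.55 and Gadd45a by 0.89, while Rprm, a p53 target that halts the cycle, fell by 1.37. The calls of Ccnd1 and Rprm were kept with the integrity covariate, and those of Gadd45b and Gadd45a were lost at differences of 1.61 and 1.04.

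The remaining large rises were spread over unrelated roles. Mt2A, a metallothionein that binds zinc and copper, read 10.80, 8.89 and 11.02 at 4 h and 12.54, 12.50 and 11.63 at 16 h. Animal 2 at 4 h was well below its group, and the 1.99 rise lost its call without animal 1 or animal 2 at 16 h. Mest rose by 1.72, Proser2 by 1.86, and its other probe set by 0.99, which was also called. Stambpl1, a deubiquitinase, rose by 1.499, and Rab30, a small GTPase of the Golgi, rose by 1.495, with 0.91 at its other probe set, which was called. None of these 5 genes was called with the integrity covariate. Their differences were then 1.82 for Proser2, 1.54 for Stambpl1, 1.59 for Rab30 and 1.47 for Mest, with larger standard errors, and 0.84 for Mt2A.

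Lgalsl, a galectin-like gene, read 8.49, 8.40 and 8.29 at 4 h and 6.93, 6.97 and 6.66 at 16 h, a difference of -1.54 ± 0.10 (SE, limma adjusted p = 2.68e-06), with -1.12 at its other probe set, also called. Mug1, a murinoglobulin protease inhibitor, read 8.89, 9.25 and 9.58 at 4 h and 8.22, 6.61 and 7.35 at 16 h, a difference of -1.85 ± 0.31 (SE). The groups did not overlap, and Mug1 averaged 4.99 at 30 h. Its probe set may read close relatives, so the gene is uncertain. Stac3 read 6.44, 8.30 and 9.34 at 4 h and 6.38, 5.46 and 5.54 at 16 h: the animals at 4 h were far apart, and the fall of 2.24 lost its call without animal 2 or animal 3 of either group. G0s2, an inhibitor of the lipase ATGL, fell by 1.46 and Inmt, a methyltransferase, by 1.35, and each lost its call on leaving out animal 3 at 4 h or any 1 animal at 16 h. G0s2 also lost it without animal 2 at 4 h. Sez6 fell by 1.24 and Resp18 by 1.22. Of the 7 genes named here, Lgalsl alone was called with the integrity covariate.

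Autophagy and lysosome genes rose in 13 of 36 measured members (36.1%, against 7.96% of all genes) and 1 fell, with 29 above 0 and a median of 0.20. Wipi1, which binds early autophagosomes, read 6.15, 6.14 and 6.48 at 4 h and 7.44, 7.45 and 7.41 at 16 h, a difference of 1.18 ± 0.11 (SE, limma adjusted p = 7.96e-05). Its dimmer probe set gave -0.05 and was not called. Hexa, a lysosomal hexosaminidase, rose by 0.38 and Atg9a, which delivers membrane to autophagosomes, rose by 0.40. The other probe set of Atg9a gave -0.21 and was not called, and Atg9a was not called with probe sets averaged. Ctss, a cathepsin rich in macrophages, was the 1 that fell, by 0.79. Atg9a lost its call without animal 2 at 16 h. Rescaled by cyclic loess, 7 members were called higher, and with the integrity covariate 2 were, Wipi1 among them, with a median of 0.30.

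Endoplasmic reticulum stress genes rose in 6 of 30 members (20%, against 7.96% of all genes) and none fell. Herpud1, a component of protein degradation at that organelle, rose by 0.97 ± 0.22 (SE) and Eif2ak3, the stress kinase PERK, rose by 0.67. The call of Herpud1 was lost without animal 2 at 4 h or animal 1 at 16 h, and 3 members were called with the integrity covariate, at a list median of 0.47 against 0.19 without it. Herpud1, at 1.18, and Eif2ak3, at 0.77, were not among these 3. Of 33 heat shock chaperone genes only Dnajb1 and Hsf2 were called (6.06%), higher by 0.55 and 0.48. The other probe set of Dnajb1 gave -0.09 and was not called. Those of Hsf2 gave 0.44, which was called, and -0.15 and -0.16, which were not. Both genes lost their call with probe sets averaged and on leaving out any 1 of the 6 animals. Neither was called under the integrity covariate, where 2 other members were. Hmox1, a heme oxygenase induced by oxidative stress, differed by -0.09 and was not called.

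Immediate early genes, which respond within minutes to stress and growth signals, gave 5 rises among 39 members (12.8%, against 7.96% of all genes) and no fall, at a median of 0.03. Under the integrity covariate 1 rise was left and the median was -0.21. Ier3 rose by 1.11 and Zfp36, which destabilises inflammatory mRNAs, by 0.58. Fos read 5.11, 6.78 and 8.36 at 4 h and 4.86, 5.33 and 5.58 at 16 h. The 3 animals at 4 h spanned more than 3 log2 units and overlapped the others, so its difference of -1.50 was not called (limma adjusted p = 0.115). Among cytokine receptors, Il6r rose by 1.38 and Il1r1, the receptor of interleukin-1, rose by 1.11 ± 0.14 (SE, limma adjusted p = 0.00074). The other, dimmer probe sets of Il1r1 gave -0.11 and -0.01 and were not called. Il6r lost its call without animal 2 at 4 h or animal 1 or 2 at 16 h, and Zfp36 without animal 1 or 2 at 4 h or animal 2 or 3 at 16 h. Of the genes in this paragraph Il1r1 was called with the integrity covariate, and Ier3 had an adjusted p of 0.0519.

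Hepatocyte transcription factors rose in 7 of 27 members (25.9%) and 1 fell (3.7%), against 7.96% and 2.67% of all genes. Cebpa, a factor of mature hepatocytes, rose by 0.82, and 3 of its 4 other probe sets were called higher as well. Hnf4a, the factor that maintains the hepatocyte state, read 10.35, 10.12 and 9.93 at 4 h and 10.96, 11.04 and 10.86 at 16 h, a difference of 0.83 ± 0.11 (SE). Its other probe sets went the other way, at -0.37, which was called lower, and at -0.18, so that the direction of Hnf4a depended on the probe set. Of the 27, 2 were called with the integrity covariate. Neither Cebpa, at a difference of 1.05, nor Hnf4a, at 0.74, was among them.

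Phase II conjugation, which couples drugs to water-soluble groups, gave 5 falls (18.5%, against 2.67% of all genes) and 1 rise among 27 members, with 21 below 0 and a median of -0.14. The cytochrome P450 list gave 6 rises (14%, against 7.96% of all genes) and no fall among 43. Gsta3, a glutathione transferase, read 10.19, 9.91 and 10.22 at 4 h and 8.88, 9.19 and 9.03 at 16 h, a difference of -1.07 ± 0.18 (SE, limma adjusted p = 0.00348), and its probe set may read sister genes. Gstm2, a glutathione transferase of another class, fell by 0.70. Of 32 NRF2 and antioxidant genes 4 rose (12.5%) and 2 fell (6.25%). Nqo1, a quinone reductase, and Msra, which repairs oxidised methionine, each fell by 0.85, while Mt2A rose by 1.99. Amino acid breakdown gave 7 falls (15.2%) and 3 rises (6.52%) among 46 members. Among the falls were Qdpr, which recycles tetrahydrobiopterin, at -0.82 and Gldc of the glycine cleavage system at -0.81. The medians with the integrity covariate were 0.01 for phase II conjugation and 0.14 for amino acid breakdown, each with 1 member called lower. Gsta3 was called there and the other genes named here were not. Gstm2 lost its call without animal 2 at 16 h, and Nqo1 without animal 2 or 3 at 16 h.

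Ribosomal proteins of the cytosol gave 4 falls (9.76%) and no rise among 41 members, 35 of them below 0, with a median of -0.16. Rps16 read 11.63, 11.62 and 11.73 at 4 h and 10.83, 10.58 and 10.53 at 16 h, a fall of 1.01 with a standard error of 0.16, and its probe set may read processed copies of the gene. The integrity covariate left none of the 41 called and a median of 0.09. In the respiratory chain 2 of 35 complex I genes (5.71%) and 1 of 37 genes of complexes II to V (2.7%) fell and none rose, against 2.67% of all genes called lower. Ndufb8 fell by 0.61 and Uqcrc2 by 0.71, while with the covariate the medians of these 2 lists were 0.31 and 0.24, with 3 and 2 members called higher.

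**Figure D4:**
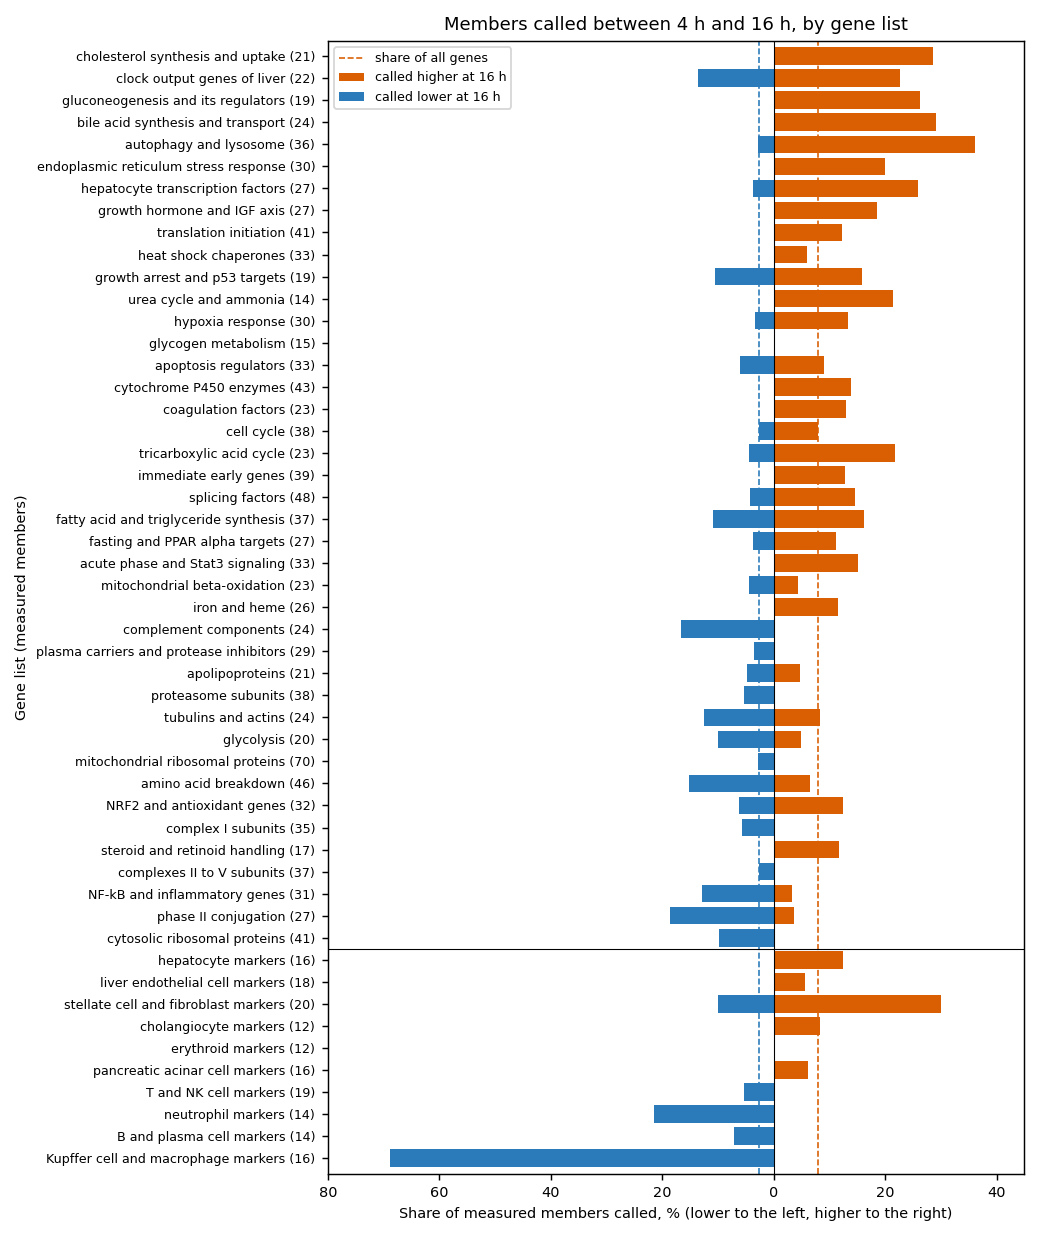
Share of the measured members of each gene list called higher (to the right) or lower (to the left) at 16 h than at 4 h, for lists with at least 10 measured genes, with dashed lines at the shares of all genes, 7.96% and 2.67%. Kupffer cell and macrophage markers have the largest share called lower, and autophagy and lysosome genes the largest share called higher.

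Most markers that define hepatocytes were not called. Alb, serum albumin, lay between 14.486 and 14.503 on all 6 arrays, at the top of the signal range of these arrays, so that a change in Alb could be hidden there. Cps1, the first enzyme of the urea cycle, differed by 0.04, with -0.51 at its other probe set, neither called, and Cyp2e1, an ethanol-oxidising P450, by -0.03. Of 16 measured hepatocyte markers 2 rose (12.5%, against 7.96% of all genes), Hnf4a by 0.83 and Apoa1, a plasma apolipoprotein, by 0.51, and none fell. The list's mean per array ranged from 12.32 to 12.34 among the 4 h animals and from 12.45 to 12.55 among the 16 h animals. The labelled cell type therefore had its defining transcripts on every array.

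Markers of other liver cells were present too. Kupffer cell and macrophage markers were lower at 16 h in 11 of 16 measured genes (68.8%, against 2.67% of all genes), and all 16 lay below 0, with a median of -0.52. Cd14, an endotoxin co-receptor, read 10.08, 10.05 and 10.16 at 4 h and 9.30, 9.27 and 8.995 at 16 h, a difference of -0.91 ± 0.10 (SE, limma adjusted p = 0.000213). Adgre1, the macrophage antigen F4/80, fell by 0.97 and Cd5l, secreted by macrophages, fell by 0.82, with -0.87 at its other probe set, also called. The mean log2 signal over the 16 genes lay in the range 8.31 to 8.68 among the 4 h animals and 7.82 to 8.06 among the 16 h animals. Fewer macrophages and less RNA per macrophage cannot be told apart in these bulk samples. With the integrity covariate the median was -0.39 and 1 of the 16, Cd14, was called. Cd14 averaged 9.84 in the heart-beating donors and 9.83 at 30 h, so its low level was confined to 16 h. Adgre1 and Cd5l averaged 5.24 and 9.32 at 16 h and were lower still at 30 h, at 4.73 and 9.05. Which cells held the Cd14 signal was not tested.

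Of 31 NF-kB and inflammatory genes 4 fell (12.9%) and 1 rose (3.23%), none of them a marker in that list. Of 24 complement genes 4 fell (16.7%) and none rose. Over all genes 2.67% were called lower and 7.96% higher. Ccl6, a chemokine made by macrophages among other cells, read 10.66, 10.27 and 10.53 at 4 h and 9.35, 8.71 and 9.05 at 16 h, a fall of 1.45 with a standard error of 0.20. C1qb and C1qc, complement subunits from macrophages, fell by 0.56 and 0.62 and stand in both lists, while Clu and Mbl1, the other complement falls, do not, at -0.43 and -0.44. Irf1, an interferon response factor, fell by 0.70 and Cxcl14 by 0.77. The part of the macrophage markers in these falls was not tested. Of 14 measured neutrophil markers 3 fell (21.4%) and none rose, with 13 below 0 and a median of -0.13. Fcgr3a fell by 0.50 and lost its call without animal 3 at 4 h or any 1 animal at 16 h. The 2 largest neutrophil falls, S100a9 at -0.96 and S100a8 at -0.68, had their highest value in the first animal at 4 h, 7.27 and 4.80. The call of S100a9 was lost without that animal. S100a9 and S100a8 also lost their call on leaving out any 1 animal at 16 h. S100a8 was near the lowest signal of the set, 2.99, on the other arrays. It read 3.74 and 3.78 in the other animals at 4 h and 3.37 to 3.47 at 16 h. C1qb and Clu lost their call on leaving out any 1 of the 6 animals and Mbl1 on leaving out any animal other than animal 1 at 16 h, and none of the genes of this paragraph was called with the integrity covariate.

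Stellate cell and fibroblast markers split. Of 20 measured genes 6 rose (30%) and 2 fell (10%), against 7.96% and 2.67% of all genes, with a median of 0.04. The collagens rose: Col3a1 read 9.48, 9.16 and 9.63 at 4 h and 10.40, 10.74 and 10.63 at 16 h, a difference of 1.16 ± 0.20 (SE), Col1a2 gave 0.96 and Col1a1 gave 0.64. Lrat, which stores retinol in stellate cells, rose by 1.03, and lost its call on leaving out any 1 of the 6 animals. Acta2, the smooth muscle actin of activated stellate cells, fell by 0.38, and lost its call without animal 1 or 2 of either group. Col1a1 lost its call without animal 2 or 3 of either group. Col3a1 averaged 10.03 in the heart-beating donors and 10.79 at 30 h. Under the integrity covariate none of the 20 was called and the median was -0.18. Liver endothelial markers had 1 rise among 18 (5.56%), cholangiocyte markers 1 among 12 (8.33%), and erythroid markers none among 12.

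**Figure D5:**
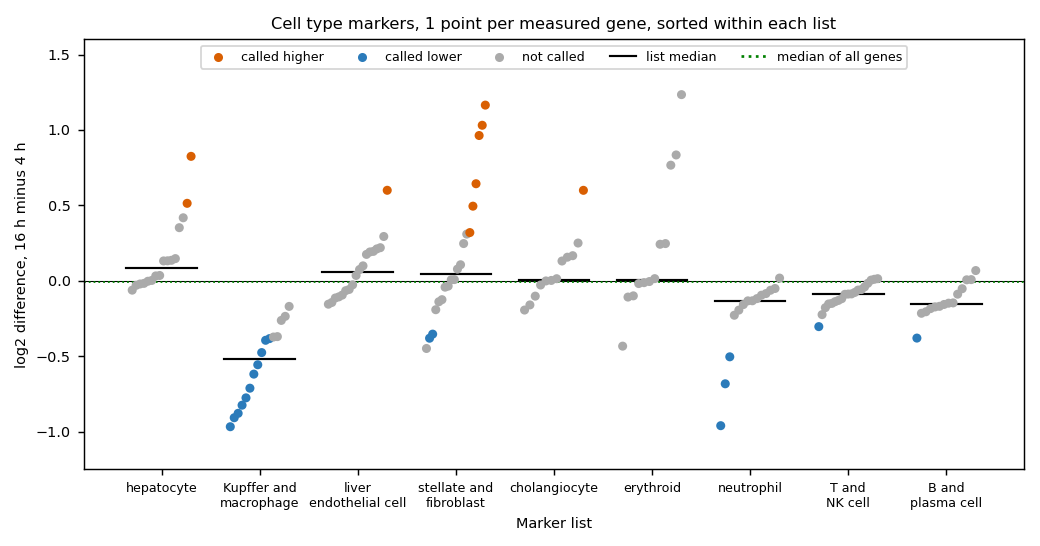
Log2 difference between 16 h and 4 h of each measured marker gene, by cell type list, with black bars at the list medians and a dotted line at the median of all genes. All 16 Kupffer cell and macrophage markers lie below 0, with a median of -0.52, while the hepatocyte median is 0.08.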

How the data were processed

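RNA from 12 liver cell isolates was measured on Affymetrix rat expression arrays. The authors deposited log2 signals per probe set, and the submitters' processing notes name RMA and limma, without versions. RMA gives background-corrected, quantile-normalized values that do not go back to counts of molecules. Array medians were 5.83 to 5.90, though rescaling still moved the split of calls, and depth in the sense of sequencing does not apply: the 3 animals per group limit the precision.

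Groups came from the sample titles, and replicates are different animals per the study's design text. Genes were named with the platform annotation, and 20758 of 20826 probe sets also matched a RefSeq gene of GRCr8. The main test was limma 3.58.1 in R 4.3.3 (lmFit and eBayes) on all 12 arrays, 1 mean per group, with no covariate, on the contrast 16 h minus 4 h. Benjamini-Hochberg adjustment ran over 14217 genes, with calls at 0.05 and a 2-fold mark at 1 log2 unit. Standard errors come from that fit, and SD from the 3 arrays. Intervals are 95%. The code was tested on simulated data.

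Genes named are the 15 largest rises and the 15 largest falls among called genes without overlapping groups, up to 4 called members with the smallest p of each of 56 gene lists (1309 distinct genes measured), all measured core clock genes, and Alb, Fos, Hmox1, Cps1, Cyp2e1, Cpt1a, Scd2 and Hsd17b2. Other names are marked as chosen after their values were seen. The members, lists and named genes were chosen with earlier results of these data known, so they are no independent evidence. Alternatives changed the scale, the filter, the probe set rule, the variance model, the arrays fitted and the threshold, and added a replicate block or the Gapdh 3' to 5' gap. Same-numbered animals of the 2 groups did not deviate together, so the numbers were not used as pairs.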

Additional observations from a re-analysis of the deposited data

How the results depend on the processing

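The count of 1511 calls was 2733 with array weights, 782 with the Gapdh 3' to 5' gap as a covariate and 540 at an adjusted p under 0.01, and 693 to 1219 when 1 animal was left out. Calls higher (1131) were 1811, 577 and 434 in the same order, and 548 to 957. Calls lower (380) were 922, 205 and 106, and 145 to 262, and also 615 after cyclic loess, 647 after quantile normalization, 573 with only the 6 arrays, 716 without the 30 h arrays and 631 over all probe sets singly. The count of 2-fold calls (70) stayed between 53 and 94. Probe sets called (2007) were 3344 with array weights and 924 to 1638 with 1 animal left out. The 2 brightest probe sets of a gene differed unequally in 806 of 4525 genes (457 to 736 with 1 animal left out). The Gapdh gap of 0.67 between the groups was 0.57 to 0.77. A replicate block gave 1260 calls, 969 higher and 291 lower, and the deviations of same-numbered animals correlated at -0.10, -0.03 and -0.08, so no pairing was shown.

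Of 158 named genes that were called, 30 kept their call under every alternative that tested them. These include Hsd17b2, Cpt1a, Ccnd1, Elovl2, Scd2, Npas2, Lgalsl, Bmal1, Chka and Tubb2a under 20, and Dbp, Nr1d1, Nr1d2 and Rprm under 19, since the filter on the brighter 50% of genes left these 4 out. With the Gapdh covariate 38 of the 158 were called. Among these called genes, 7 changed direction under some alternative, 6 of them with the Gapdh covariate. Their main differences were -0.84 for Apoa4, -0.52 for Rps3, -0.49 for Pgk1, -0.44 for Mbl1, and -0.36 for Gstz1 and Rps15a. Akt2, at 0.35 in the main fit, turned with probe sets averaged. The other genes whose direction turned were not called in the main fit, and the cause was not tested. With the covariate Alb was 0.00774, Cyp2e1 0.20, Per2 0.00291, Rora 0.18, Apoa4 0.0716, Gstz1 0.0133, Hmox1 0.0439, Mbl1 0.16, Pgk1 0.0396, Rps15a 0.0138 and Rps3 0.0639. After cyclic loess Alb was 0.0874, Cyp2e1 0.0220 and Hlf -0.0655, and after quantile normalization Alb was 0, Cyp2e1 0.0386, Hlf -0.0915 and Cry2 -0.000428. With probe sets averaged, Akt2 was -0.0717, Cps1 -0.24, Csnk1e -0.0248 and Per2 0.28. Array weights gave Hlf -0.0123 and Rora 0.00971. With 1 animal left out, Alb ranged from -0.0082 to 0.0012, Hlf from -0.0435 to 0.0797, Rora from -0.0447 to 0.0473 and Bhlhe40 from -0.354 to 0.0531.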

Other observations

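Probe sets with no gene symbol also differed between 16 h and 4 h. Of 9780, 327 were called higher and 159 lower (4.97% in all), against 9.64% of the 20826 with 1 symbol. Of 436 probe sets with several symbols, 15 were called higher and 37 lower (11.9%). Names for these were not sought.

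Growth hormone and insulin-like growth factor genes rose in 5 of 27 measured members (18.5%, against 7.96% of all genes) and none fell, and 1 of the 27 was called with the Gapdh gap as a covariate, Igfbp4. Cish, a feedback inhibitor of cytokine signalling, rose by 0.64, Igfbp7 by 0.58 and Igfbp4 by 0.35. Among 23 genes of the tricarboxylic acid cycle 5 rose (21.7%) and 1 fell (4.35%): Aco1, the cytosolic aconitase, gave 0.48, Dlst 0.43 and Pdha1 0.39. Of 14 genes of the urea cycle and ammonia handling 3 rose (21.4%): Aqp9, a glycerol and urea channel, gave 0.58, Glul, glutamine synthetase, 0.40, and Slc25a13 0.39. The other probe sets gave -0.18 for Pdha1, -0.14 for Slc25a13, and 0.22 and -0.31 for Glul, none called, and these 3 genes were not called with probe sets averaged. Of 41 translation initiation genes 5 rose (12.2%) and none fell, and of 48 splicing factors 7 rose (14.6%) and 2 fell (4.17%), beside 7.96% and 2.67% of all genes. With the Gapdh covariate the calls higher and lower were 4 and 0 for the tricarboxylic acid cycle, 3 and 0 for the urea cycle, 3 and 0 for translation initiation and 1 and 1 for splicing factors. Cish lost its call without animal 1 at 4 h or animal 1 or 3 at 16 h, Pdha1 without animal 1 or 2 at 4 h or animal 2 or 3 at 16 h, Aqp9 without animal 1 or 3 at 4 h or animal 1 or 2 at 16 h, Glul without animal 1 or 3 at 4 h or animal 2 or 3 at 16 h, and Dlst on leaving out any animal other than animal 2 at 4 h.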
